A study of Mus musculus with 9 samples.

Results

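Ddx6 and 9 further genes of cytoplasmic mRNA decay were examined in the paraventricular nucleus (PVN) of mice, 10 of the 27179 genes in the count table. Ddx6 was selected on its counts in these samples, because the comparison of all 3 diet groups placed it among the genes most changed in HFD mice, so its levels are given here as a description with no test. Cnot1, Cnot6, Cnot7, Dcp1a, Dcp2, Edc4, Xrn1, Tnrc6a and Tnrc6b were listed for their role in decay, with earlier results of these data known. All 10 genes had enough counts to be tested.

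RNA from PVN tissue punches of 9 male wild type C57BL/6J mice (C57BL/6 in the labels) was sequenced, with 3 independent mice in each group. Control mice were kept on standard chow for 12 weeks from 5 weeks of age. In the diet of the HFD group fat supplied 60% of calories over the same time. HFD+Mino mice ate that high-fat diet and received minocycline, a tetracycline antibiotic used to restrain microglia, at 40 mg/kg per day in drinking water for the last 6 weeks. The labels give the age as postnatal day 35, which is the age at the start of the diets, while the design text calls the mice adult. A punch holds neurons, glia and vessels together, and in such bulk tissue fewer cells of a type cannot be told apart from less RNA per cell.

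Most mRNAs are destroyed in the cytoplasm in an ordered series of steps. The CCR4-NOT complex first shortens the poly(A) tail, the DCP2 enzyme with its partners then removes the 5′ cap, and XRN1 digests the uncapped RNA from its 5′ end. DDX6 is an RNA helicase of the DEAD-box family that binds the CNOT1 scaffold and the decapping factors, joins the tail-shortening step to translational repression and decapping, and is a core protein of P-bodies. GW182 proteins, among them TNRC6A and TNRC6B, link Argonaute and its microRNA to the same CCR4-NOT complex.

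The smallest library, HFD replicate 1, held 17728590 counts and the largest, Control replicate 1, held 42326213, and a single member held from 95 counts (Dcp1a in HFD+Mino replicate 1) to 4023 counts (Cnot7 in HFD replicate 3). The libraries stood apart in some markers of tissue, given here in CPM, a gene's reads as a share of all reads of the library after TMM scaling. Of the 6 PVN genes, Control replicate 1 had the lowest level of all 9 libraries in 5, with Avp at 0.149 CPM, Oxt at 0.77 CPM, Trh at 5.49 CPM, Sim1 at 0.77 CPM and Otp at 0. The sixth, Crh, was at 20.6 CPM there, above Control replicate 2 (18.0 CPM) and HFD replicate 1 (14.4 CPM). The fitted differences of the members and the counts of calls were also computed without this library, while separations of mice, length classes, level orders and likeness use all 9 samples. The 6 PVN genes summed to 27.8 to 2563 CPM in Control and 2479 to 3726 CPM in HFD. In HFD+Mino they summed to 37726, 31917 and 3104 CPM in replicates 1, 2 and 3. Replicate 3 thus lay within the HFD range, while HFD+Mino replicates 1 and 2 lay far above every other library. The ribosomal precursor Rn45s was at 239 to 461 CPM in Control, 3477 to 3829 CPM in HFD and 426 to 1346 CPM in HFD+Mino.

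Levels are given in CPM for each mouse in the order replicates 1, 2 and 3. Differences between groups are log2 values with their standard error (SE) from edgeR's quasi-likelihood fit over all 9 samples. FDR is the Benjamini-Hochberg adjusted p over all 17344 tested genes, and a gene was called at an FDR under 0.01 together with a difference of at least 1.5-fold. The 3-way test is for any difference among Control, HFD and HFD+Mino, and its fold is the distance of HFD from the mean over groups, with HFD the highest or lowest.

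The sequence around a gene's start, where its transcription is controlled, was read from the RefSeq table of GRCm38.p6 for 6 members. It covered 300 bases, 250 before to 50 after the start. No promoter was read for Ddx6, Cnot1, Cnot7 and Dcp2. Dcp2 was left out of the reading, so its absence here does not show that the RefSeq table lacks it. Among those 6, Dcp1a lay farthest from the mean of the 3 groups in HFD and Tnrc6a nearest to it, so both are shown, with each CpG in capitals. The Dcp1a promoter is chr14:30479315-30479614 and the Tnrc6a promoter chr7:123123635-123123934, both on the plus strand. The RefSeq start of Tnrc6a lies inside the gene as GENCODE draws it.
Dcp1a: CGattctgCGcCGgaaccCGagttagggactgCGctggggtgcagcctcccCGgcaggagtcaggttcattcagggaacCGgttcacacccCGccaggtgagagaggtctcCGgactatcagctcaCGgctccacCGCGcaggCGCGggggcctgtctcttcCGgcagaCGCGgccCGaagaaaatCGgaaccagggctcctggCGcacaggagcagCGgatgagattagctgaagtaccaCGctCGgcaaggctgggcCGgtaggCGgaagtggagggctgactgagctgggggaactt
Tnrc6a: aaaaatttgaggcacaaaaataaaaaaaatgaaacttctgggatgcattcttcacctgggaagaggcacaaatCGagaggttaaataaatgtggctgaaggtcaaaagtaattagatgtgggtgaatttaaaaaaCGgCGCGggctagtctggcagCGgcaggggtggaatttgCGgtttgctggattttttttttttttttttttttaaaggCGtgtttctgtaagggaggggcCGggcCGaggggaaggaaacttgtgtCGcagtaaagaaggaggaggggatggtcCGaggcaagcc
The Dcp1a promoter held 25 CpGs and 65.3% G or C, and 81.6% of the 32851 promoters in the table held fewer CpGs. The Tnrc6a promoter held 11 CpGs and 44.7% G or C, and 58.6% of promoters held fewer. Neither held the CCAAT box (letters CCAAT), which 37.4% of all promoters hold on one strand or the other. Neither held the TATA box (TATAAA), found in 13.6% of all promoters, or the GC box (GGGCGG), found in 35.7%. Cnot6 had the most CpGs among the 6 genes, at 33, and Edc4 the fewest, at 8.

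Ddx6 (gene 13209, chr9:44602983-44640731 on the plus strand, GRCm38) was higher in every HFD mouse than in any other mouse. Its level was 16.5, 21.6 and 18.8 CPM in Control, 98.4, 94.8 and 96.6 CPM in HFD, and 33.9, 34.2 and 18.8 CPM in HFD+Mino. The HFD mice lay close together and far above both other groups, while HFD+Mino replicate 3 sat within the Control range and the other HFD+Mino mice above it. The means were 19.0 ± 2.55, 96.6 ± 1.80 and 29.0 ± 8.79 CPM (SD, n = 3 each). The fitted level was 5.09-fold higher in HFD than in Control (log2 difference 2.35, SE 0.26) and 3.34-fold lower in HFD+Mino than in HFD (log2 difference -1.74, SE 0.26). HFD+Mino was 1.53-fold above Control (log2 difference 0.61, SE 0.25).

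The distance of Ddx6 in HFD was also computed with 1 library left out. Ddx6 was selected on its counts in these samples, so the values below describe it and are no test. With each mouse left out in turn, the log2 difference of HFD from Control ran from 2.25 to 2.46, and that of HFD+Mino from HFD from -1.87 to -1.50. Without Control replicate 1, the library poor in PVN message, the difference of HFD from Control was 2.25. Ddx6 was also even among the HFD mice, with a coefficient of variation of 1.86%, against 13.4% in Control and 30.3% in HFD+Mino. Only 1.47% of tested genes varied less among the HFD mice, where the median coefficient of variation was 14.9%, and the medians were 24.8% in Control and 35.9% in HFD+Mino.

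**Figure D1:**
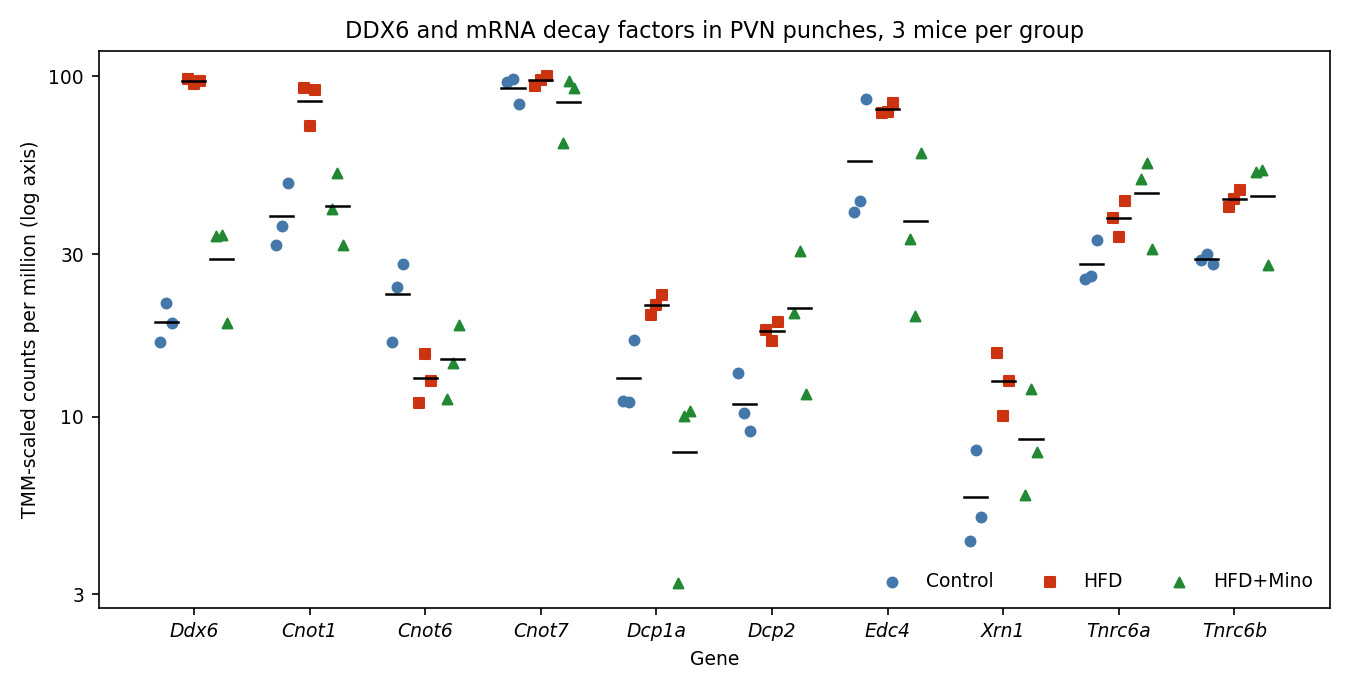
TMM-scaled CPM of the 10 genes in each of the 9 mice, on a log axis, with a black bar at each group's mean. Ddx6 in HFD lies between 94.8 and 98.4 CPM, above every Control and HFD+Mino mouse, while most other genes overlap between some groups.

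None of the 9 other members was called in the 3-way test, where 2.13% of tested genes were called, 0.917% with HFD highest and 1.21% with HFD lowest. None was called in HFD against Control (1.74% of tested genes, 0.317% higher and 1.42% lower). None was called in HFD+Mino against HFD (4.15% of tested genes, 1.98% higher and 2.16% lower), nor in HFD+Mino against Control, where no gene was called (0.00%). Without Control replicate 1 none was called either, and the log2 differences of these 9 from Control in HFD kept their signs, with that of Edc4 at 0.31 against 0.51 with all mice. The difference of HFD+Mino from Control of Cnot1 then turned from 0.10 to -0.03, and that of Xrn1 was 0.39. At an unadjusted p under 0.05 with edgeR's quasi-likelihood test, 5 of the 9 passed the 3-way test, 4 HFD against Control, 3 HFD+Mino against HFD and 4 HFD+Mino against Control. The shares of all tested genes at that p were 39.0%, 20.5%, 41.3% and 21.3%.

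The calls depended on the model. DESeq2 called Cnot1 and Dcp1a in the 3-way test, Cnot1 in HFD against Control, and Cnot1 and Dcp1a in HFD+Mino against HFD, while calling 15.5%, 7.83% and 26.1% of the genes it tested. In HFD+Mino against Control it called none of the 9, and 1.80% of genes. Same-numbered samples deviated together in Control and HFD+Mino, and with that number as a block in those 2 groups, edgeR called Cnot1, Dcp1a and Edc4 in the 3-way test and in HFD+Mino against HFD. That blocked fit called 13.2% and 25.6% of all tested genes in these tests. It called none of the 9 in HFD against Control or HFD+Mino against Control, at 6.22% and 3.18% of genes. The pairing behind the block was seen in these counts alone, so its calls show dependence on the model and no independent support.

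Cnot1 (gene 234594, chr8:95718931-95808113, minus strand), the scaffold of the CCR4-NOT complex and the docking site of DDX6, came nearest to the threshold. Its level was 32.0, 36.2 and 48.5 CPM in Control, 92.2, 71.4 and 90.9 CPM in HFD, and 40.8, 52.1 and 32.0 CPM in HFD+Mino. All HFD mice lay above all others, and the other 2 groups overlapped. The fitted level was 2.18-fold higher in HFD than in Control (log2 difference 1.12, SE 0.25, FDR 0.0259 by edgeR) and 2.04-fold lower in HFD+Mino than in HFD (log2 difference -1.03, SE 0.25, FDR 0.0162 by edgeR). The FDR of its 3-way test was 0.0186 in the same fit. Without Control replicate 1 the difference of HFD from Control was 1.00, with an FDR of 0.105 by edgeR.

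Neither Cnot6 nor Cnot7, catalytic subunits of the same complex, shared that order of groups. Cnot6 (gene 104625, chr11:49671497-49713401, minus strand) encodes a poly(A) nuclease of the CCR4 type. It was at 16.6, 23.97 and 28.0 CPM in Control, 10.99, 15.3 and 12.7 CPM in HFD, and 11.3, 14.3 and 18.6 CPM in HFD+Mino. All HFD mice lay below all Control mice, and HFD and HFD+Mino overlapped. The difference of HFD from Control was -0.81 on the log2 scale (SE 0.29, FDR 0.135 by edgeR), opposite in sign to that of every other member.

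Cnot7 (gene 18983, chr8:40492538-40515847, minus strand) encodes a poly(A) nuclease of the CAF1 type and had the highest mean level per kilobase of exon of the 10 genes in every group. It was at 96.4, 98.2 and 83.0 CPM in Control, 93.8, 97.8 and 100.1 CPM in HFD, and 63.9, 96.7 and 92.4 CPM in HFD+Mino. The 3 groups overlapped throughout. Its log2 difference was 0.07 (SE 0.21) in HFD against Control and -0.21 (SE 0.21) in HFD+Mino against HFD. The exons of Cnot7 share 247 nt with Zdhhc2 on the opposite strand, a gene at 36.4 to 56.7 CPM in Control and 11.7 to 13.5 CPM in HFD. Whether reads were counted by strand is not given in the sources used here, so reads from this stretch cannot be told apart.

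Of the decapping genes, Dcp1a (gene 75901, chr14:30479486-30527056, plus strand), the activator of the DCP2 enzyme, was highest in the HFD mice. It was at 11.1, 11.1 and 16.8 CPM in Control, 19.8, 21.3 and 22.8 CPM in HFD, and 3.25, 10.0 and 10.4 CPM in HFD+Mino. The 3 groups did not overlap, with HFD+Mino lowest, and the nearest mice of Control and HFD+Mino were at 11.1 and 10.4 CPM. The log2 difference of HFD+Mino from Control was -0.72 (SE 0.39, FDR 0.303 by edgeR). HFD+Mino was 2.70-fold below HFD (log2 difference -1.43, SE 0.39, FDR 0.0238 by edgeR). HFD was 1.64-fold above Control (log2 difference 0.71, SE 0.39, FDR 0.326 by edgeR).

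Dcp2 (gene 70640, chr18:44380500-44424969, plus strand), the decapping enzyme itself, was at 13.4, 10.2 and 9.04 CPM in Control, 18.0, 16.7 and 18.9 CPM in HFD, and 20.1, 30.7 and 11.6 CPM in HFD+Mino. HFD lay above Control in all mice, but the HFD+Mino mice spanned both groups. Its log2 difference was 0.71 (SE 0.33, FDR 0.255 by edgeR) in HFD against Control and 0.22 (SE 0.33) in HFD+Mino against HFD.

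Edc4 (gene 234699, chr8:105880873-105893225, plus strand), a large scaffold that holds DCP1A and DCP2 together, was even in HFD and spread widely in the other groups. It was at 39.9, 43.0 and 85.8 CPM in Control, 78.1, 78.6 and 83.7 CPM in HFD, and 33.3, 19.7 and 59.6 CPM in HFD+Mino. Control replicate 3 lay above all HFD mice, and all HFD+Mino mice lay below them. HFD+Mino was 2.13-fold below HFD (log2 difference -1.09, SE 0.39, FDR 0.0593 by edgeR), which was not called. With the replicate block the log2 difference was -1.23 with an FDR of 0.000985 by edgeR. That block was taken from these same counts, so its FDR is no independent support. The exons of Edc4 share 458 nt with Nrn1l on the same strand, a gene at 2.59 to 7.53 CPM in HFD and 7.08 to 16.2 CPM in HFD+Mino.

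Xrn1 (gene 24127, chr9:95954750-96057806, plus strand), the 5′ to 3′ exonuclease that ends the pathway, had the lowest mean level per kilobase of exon of the 10 genes in every group. It was at 4.30, 7.99 and 5.06 CPM in Control, 15.4, 10.0 and 12.7 CPM in HFD, and 5.89, 12.04 and 7.84 CPM in HFD+Mino. The HFD mice lay above the Control mice, and HFD+Mino overlapped both. The difference of HFD from Control was 1.14 on the log2 scale (SE 0.36, FDR 0.0951 by edgeR), a 2.20-fold distance. Its exons share 184 nt with Gm16794 and 604 nt with C78334, both antisense genes.

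The GW182 genes Tnrc6a (gene 233833, chr7:123031101-123195296, plus strand) and Tnrc6b (gene 213988, chr15:80711313-80941086, plus strand) had similar patterns over the groups. Tnrc6a was at 25.4, 25.8 and 33.1 CPM in Control, 38.4, 33.7 and 42.9 CPM in HFD, and 49.9, 55.4 and 31.2 CPM in HFD+Mino. Tnrc6b was at 28.9, 30.1 and 28.1 CPM in Control, 41.2, 43.4 and 46.3 CPM in HFD, and 52.4, 53.0 and 27.8 CPM in HFD+Mino. In both, all HFD mice lay above all Control mice, HFD+Mino replicates 1 and 2 lay above the HFD mice, and HFD+Mino replicate 3 lay below them. The log2 difference of HFD from Control was 0.45 (SE 0.25) for Tnrc6a and 0.59 (SE 0.26) for Tnrc6b, and that of HFD+Mino from HFD was 0.25 (SE 0.25) and 0.03 (SE 0.25). None of these differences was called, and HFD+Mino replicate 3 stood apart from the other mice of its group in both genes.

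**Figure D2:**
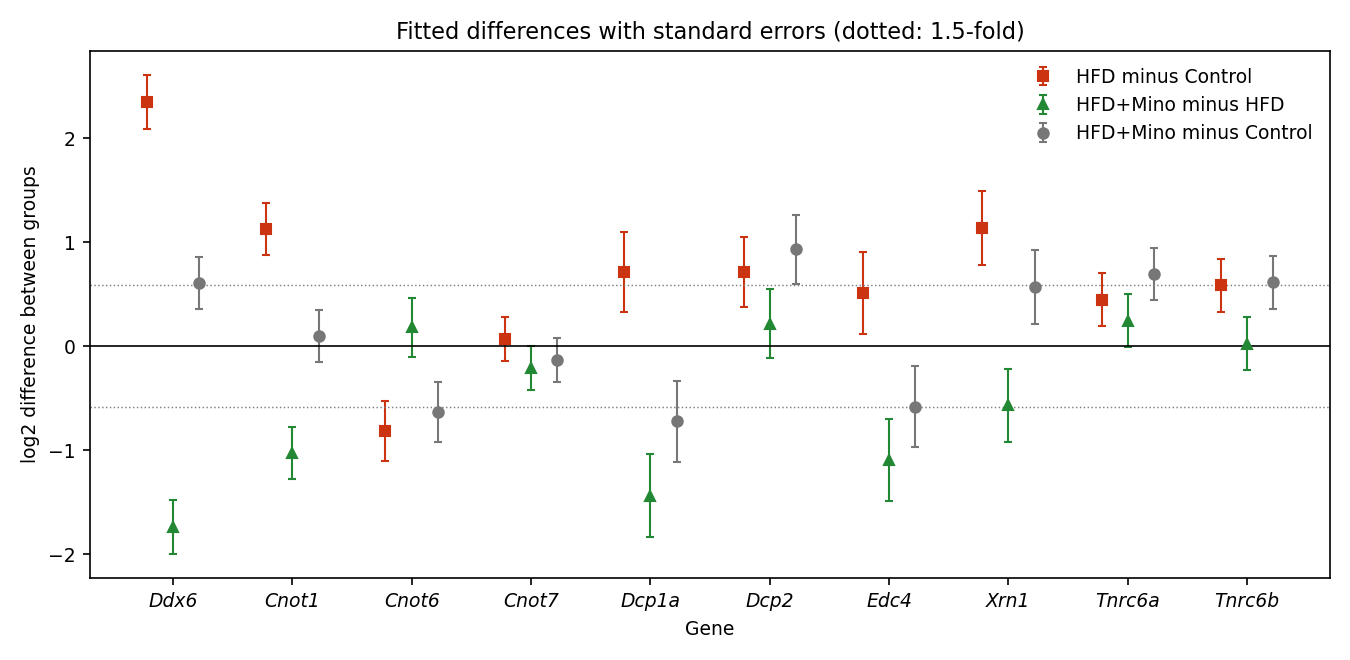
Fitted log2 differences between groups for each of the 10 genes, with bars of 1 SE and dotted lines at 1.5-fold. Ddx6 stands at 2.35 for HFD minus Control and -1.74 for HFD+Mino minus HFD, Cnot1 at 1.12 and -1.03, and Cnot6 alone lies below 0 for HFD minus Control.

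By separation of the mice, 2 of the 9 members other than Ddx6, Cnot1 and Dcp1a, were higher in all HFD mice than in all others, and none was lower, where 13.4% and 9.62% of tested genes were. Against Control alone, 6 of the 9 were higher in all HFD mice (19.7% of tested genes) and Cnot6 was lower (16.0%). In HFD+Mino, 3 of the 9, Cnot1, Dcp1a and Edc4, were lower than in all HFD mice (23.5% of tested genes), and none was higher (23.3%). Compared with Control, Dcp1a alone was lower in all HFD+Mino mice (10.1%), and none was higher (8.93%).

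Exon length moved with these differences. The members are long, with a median exon length of 8466 nt against 4334 nt for the 15625 tested genes that have a length. Ddx6, Cnot1, Dcp1a, Dcp2, Xrn1, Tnrc6a and Tnrc6b fall in the longest of 5 equal classes of tested genes, from 7487 nt up, and the other 3 in the class next to it. The median log2 difference of HFD from Control was higher in longer genes, from -0.26 in the shortest class to 0.18 in the next to longest and 0.39 in the longest. That of HFD+Mino from HFD went the other way, from 0.86 in the shortest class to -0.42 in the next to longest and -0.57 in the longest. In the longest class, 40.3% of genes were higher in all HFD mice than in all Control mice, and 46.5% were lower in all HFD+Mino mice than in all HFD mice.

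With a smooth trend on exon length removed from each sample, Ddx6 kept a log2 difference of 2.05 in HFD against Control and -1.21 in HFD+Mino against HFD. The difference of HFD from Control became 0.57 for Cnot1, 0.54 for Xrn1, 0.43 for Dcp1a and 0.36 for Dcp2. The difference of Cnot1 in HFD+Mino against HFD became -0.36 and that of Dcp1a -0.94, those of Cnot6, Dcp2, Tnrc6a and Tnrc6b became 0.61, 0.77, 0.88 and 0.73, and Cnot7 and Xrn1 came to 0.18 and 0.10 with their sign turned. Tnrc6a came to -0.01, Tnrc6b to -0.08 and Cnot7 to -0.10, so the sign of these 3 turned in HFD against Control. Removing the trend also shifted the median of all genes by 0.11 in HFD+Mino against HFD and in HFD+Mino against Control. What sets the trend was not tested.

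**Figure D3:**
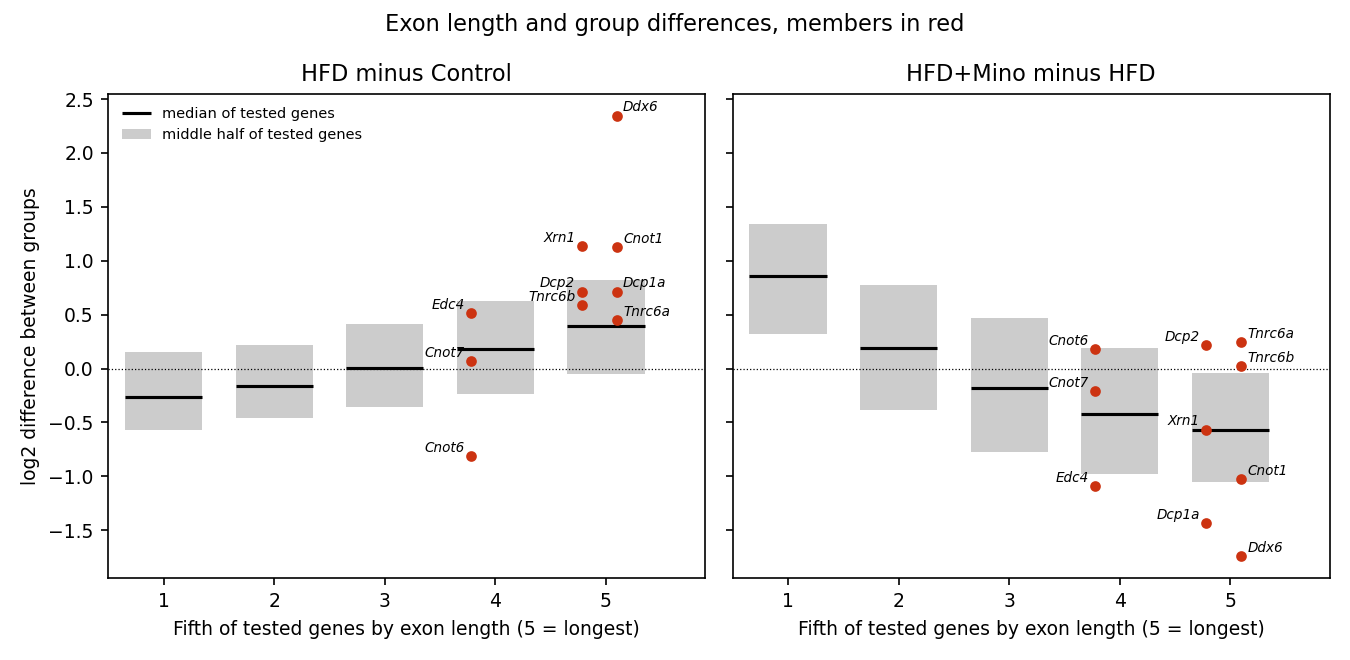
Log2 differences of tested genes in 5 equal classes by exon length, for HFD minus Control and HFD+Mino minus HFD, with grey bars from the lower to the upper quartile, black lines at medians and the 10 genes as red points. Medians run from -0.26 to 0.39 in the first panel and from 0.86 to -0.57 in the second, and Ddx6 lies outside the grey bar of its class in both.

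Markers of cell types also differed between the groups. The 5 astrocyte genes summed to 1577 to 1686 CPM in Control, 2103 to 2290 CPM in HFD and 1327 to 1526 CPM in HFD+Mino. Of these 5 genes, Slc1a3 alone was higher in all HFD mice than in all Control mice, and 4 were lower in all HFD+Mino mice than in all HFD mice. The 6 microglial genes summed to 160 to 216 CPM in Control, 226 to 240 CPM in HFD and 177 to 223 CPM in HFD+Mino, with 3 of 6 higher in all HFD mice than in all Control mice. Between HFD+Mino and HFD, 2 microglial genes, Aif1 and C1qa, were higher in all HFD+Mino mice and 2 were lower. The 5 neuronal genes summed to 4124 to 6853 CPM, 3082 to 4968 CPM and 3710 to 4700 CPM in the same order. Of the neuronal genes, 1 was higher in all HFD mice than in all Control mice, and 2 were lower in all HFD+Mino mice than in all HFD mice.

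Other cell types and nuclei marked single libraries as well as groups. The 5 oligodendrocyte genes summed to 27544 CPM in Control replicate 1, against 5293 and 3315 CPM in the other Control mice, 2271 to 6225 CPM in HFD and 1956 to 5354 CPM in HFD+Mino. The 4 genes of neighbouring hypothalamic nuclei summed to 470 and 3377 CPM in Control replicates 1 and 2 and 27.5 CPM in Control replicate 3, against 5.82 to 26.8 CPM in HFD and 8.11 to 72.8 CPM in HFD+Mino, and 2 of 4 were lower in all HFD mice than in all Control mice. The 3 ependymal genes summed to 14.8 to 92.9 CPM in Control, 98.0 to 168 CPM in HFD and 187 to 380 CPM in HFD+Mino, with no overlap of the sums between groups. Of these genes, 2 were higher in all HFD mice than in all Control mice, and 2 in all HFD+Mino mice than in all HFD mice. Foxj1 overlapped there, at 6.80 to 21.3 CPM in HFD+Mino against 12.1 to 22.9 CPM in HFD. The 3 endothelial genes summed to 76.7 to 126 CPM, 60.2 to 80.9 CPM and 43.5 to 85.7 CPM in the same order, and the 3 choroid plexus genes to 3.80 to 5.04 CPM, 4.26 to 13.1 CPM and 11.1 to 14.2 CPM. Among the endothelial genes, 1 was higher and 1 lower in all HFD mice than in all Control mice. Among the choroid plexus genes, Folr1 was higher in all HFD+Mino mice than in all HFD mice and Kl was lower. Apart from Otp no marker was at 0 in any sample, and the part of these cell types in the levels of the members was not tested.

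The order of the levels was compared per kilobase of exon. In Control it ran from Cnot7 (15.9 ± 1.43 CPM per kilobase, SD, n = 3) and Edc4 (10.2 ± 4.66) down to Xrn1 (0.311 ± 0.105). The ranges of Cnot7 and Edc4 overlapped in Control. Ddx6 had rank 4 in Control at 2.36 ± 0.317 CPM per kilobase, and its range overlapped those of Cnot6 above it and Cnot1 below it. In HFD it had rank 3 at 12.02 ± 0.224, between Edc4 (14.6 ± 0.562) and Cnot1 (4.94 ± 0.679), and its range overlapped neither. In HFD+Mino it had rank 3 again at 3.61 ± 1.09, and overlapped Edc4 above it and Tnrc6a below it.

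The closest relatives of the members in the same complexes were read from the same fit. Cnot6l, the paralog of Cnot6, was at 4.74 to 7.01 CPM in Control, 13.8 to 15.5 CPM in HFD and 5.00 to 10.8 CPM in HFD+Mino, so all HFD mice lay above all others and the other 2 groups overlapped, as for Cnot1. Its log2 difference of HFD from Control was 1.27 with an FDR of 0.0449 by edgeR's quasi-likelihood test, which is not a call, and its sign is opposite to that of Cnot6. DESeq2 called Cnot6l in the 3-way test and in HFD against Control. Cnot8, the paralog of Cnot7, differed by -0.22, Dcp1b by 0.08, Tnrc6c by 0.30 and the nuclear exonuclease gene Xrn2 by 0.22 on the log2 scale, and none of these was called by edgeR or DESeq2 in any comparison.

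Beyond the members, 92 genes of mRNA decay were tested, in groups by role. Of these 92, 3 were called in the 3-way test across Control, HFD and HFD+Mino, with 1 highest and 2 lowest in HFD. In HFD against Control 3 were called, all lower, in HFD+Mino against HFD 5, of which 3 were higher, and in HFD+Mino against Control none. Against the shares of all tested genes given above, these are 3.26%, 3.26%, 5.43% and 0% of the list. At an unadjusted p under 0.05 by edgeR's quasi-likelihood test, the numbers were 52, 27, 47 and 23 in the same order. They make 56.5%, 29.3%, 51.1% and 25% of the list, beside 39.0%, 20.5%, 41.3% and 21.3% of all tested genes. The median log2 difference over the 92 genes was -0.10 in HFD against Control and -0.07 in HFD+Mino against HFD, beside 0.004 and 0.009 over all tested genes.

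Pabpn1, which encodes the nuclear poly(A)-binding protein, was the only gene of 9 in the group of other deadenylases and poly(A)-binding proteins that edgeR's quasi-likelihood test called. It was at 162, 176 and 125 CPM in Control, 27.2, 33.9 and 30.3 CPM in HFD, and 145, 133 and 191 CPM in HFD+Mino. The HFD mice lay far below all others. Pabpn1 fell by 2.34 on the log2 scale in HFD against Control (SE 0.23, FDR 0.00036 by edgeR) and rose by 2.36 in HFD+Mino against HFD (SE 0.23, FDR 0.000513 by edgeR). DESeq2 and edgeR's likelihood ratio test also called Paip1, which encodes a partner of the poly(A)-binding protein, in all 3 comparisons with HFD, and DESeq2 called Paip2 in HFD+Mino against HFD (FDR 0.00889). Paip1 was at 16.3 to 23.7 CPM in Control, 45.5 to 55.0 CPM in HFD and 18.1 to 28.8 CPM in HFD+Mino, with a 3-way FDR of 0.0140 by edgeR's quasi-likelihood test and 2.81e-05 by DESeq2. Paip1 and Paip2 were picked out after their values were seen.

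Among 23 adaptors that bring decay enzymes to an mRNA, Btg3, Hnrnpd and Cpeb4 were called by edgeR's quasi-likelihood test in one comparison or more. Btg3, an antiproliferative protein of the BTG/TOB family that binds CCR4-NOT, was at 8.54, 8.70 and 7.54 CPM in Control, 1.15, 1.07 and 0.747 CPM in HFD, and 8.11, 10.9 and 8.004 CPM in HFD+Mino. It fell by 3.06 on the log2 scale in HFD against Control and rose by 3.19 in HFD+Mino against HFD (FDR 0.000516 and 0.000633 by edgeR). Hnrnpd, which encodes the AU-rich element binding protein AUF1, fell by 1.33 in HFD against Control (SE 0.23, FDR 0.00826 by edgeR), and was not called there without Control replicate 1.

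Cpeb4, which encodes a binding protein of the cytoplasmic polyadenylation element, was highest in HFD, as Ddx6 was. It was at 1.81, 1.67 and 2.47 CPM in Control, 10.2, 8.41 and 9.01 CPM in HFD, and 0.616, 1.67 and 1.28 CPM in HFD+Mino. All HFD mice lay above all others, and its 3-way FDR was 0.00341 by edgeR. Its log2 difference was 2.21 in HFD against Control (FDR 0.0102 by edgeR, not called) and it fell by 2.95 in HFD+Mino against HFD (FDR 0.00288 by edgeR).

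In the other groups of the list edgeR's quasi-likelihood test called 2 genes. The number at an unadjusted p under 0.05 by that test and the number called by DESeq2 are given in the order of the 4 comparisons. Over all tested genes, 39.0%, 20.5%, 41.3% and 21.3% had such a p. DESeq2 called 15.5%, 7.83%, 26.1% and 1.80% of the genes it tested. Of 8 partners of DDX6 in translational repression none was called, 4, 3, 4 and 1 had such a p, and DESeq2 called 3, 2, 2 and 0. Of 8 other CCR4-NOT subunits none was called, 1, 1, 3 and 0 had such a p, and DESeq2 called 1, 1, 0 and 0. Of 5 other Argonaute and GW182 genes none was called, 1, 1, 1 and 0 had such a p, and DESeq2 called 0, 0, 1 and 0. Of 10 nonsense-mediated decay factors none was called, 6, 4, 6 and 1 had such a p, and DESeq2 called 1, 1, 3 and 0. Eif4enif1, which encodes the 4E-T protein that binds DDX6, was at 44.5 to 70.6 CPM in Control, 20.4 to 23.0 CPM in HFD and 37.6 to 59.9 CPM in HFD+Mino, with a 3-way FDR of 0.0165 by edgeR. Of 11 decapping genes of the list Lsm7 alone was called, 9, 1, 8 and 7 had such a p, and DESeq2 called 3, 0, 6 and 1. Lsm7, of the LSM1-7 ring, rose by 1.75 on the log2 scale in HFD+Mino against HFD (FDR 0.00954 by edgeR). All 8 at that p there were higher, and the group's median log2 difference was 0.85. Dcps, Lsm4, Lsm5 and Lsm7 fall in the shortest class by exon length, where the median over tested genes was 0.86. Nudt16, Lsm1, Lsm2 and Lsm3 fall in the next class, where it was 0.19. The part of exon length in this group's difference was not tested. Of 17 genes of the RNA exosome and its cofactors Dis3l2 alone was called, 12, 3, 13 and 8 had such a p, and DESeq2 called 2, 1, 11 and 0. The exonuclease gene Dis3l2 fell by 1.24 in HFD+Mino against HFD (FDR 0.00966 by edgeR). Of the 13 at that p there, 9 were higher and 4 lower, and the group's median log2 difference was 0.60. Eif4enif1, Lsm7 and Dis3l2 were picked out after their values were seen.

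The list's counts moved with the model as the members' did. Under DESeq2 the 3-way test called 20 of the 92, and 13 were called in HFD against Control, 34 in HFD+Mino against HFD and 1 in HFD+Mino against Control. With the replicate block in Control and HFD+Mino they were 19, 10, 36 and 3. Without Control replicate 1 they were 3, 2, 7 and 0, while 312, 180, 940 and 0 of all tested genes were called. Without HFD+Mino replicate 3 they were 17, 6, 30 and 8, while 2396, 550, 3815 and 1120 of all tested genes were called. With any 1 HFD mouse left out none of the 92 was called in the 3-way test. From 3 to 14 of all tested genes then were, against 369 with all mice.

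**Figure D4:**
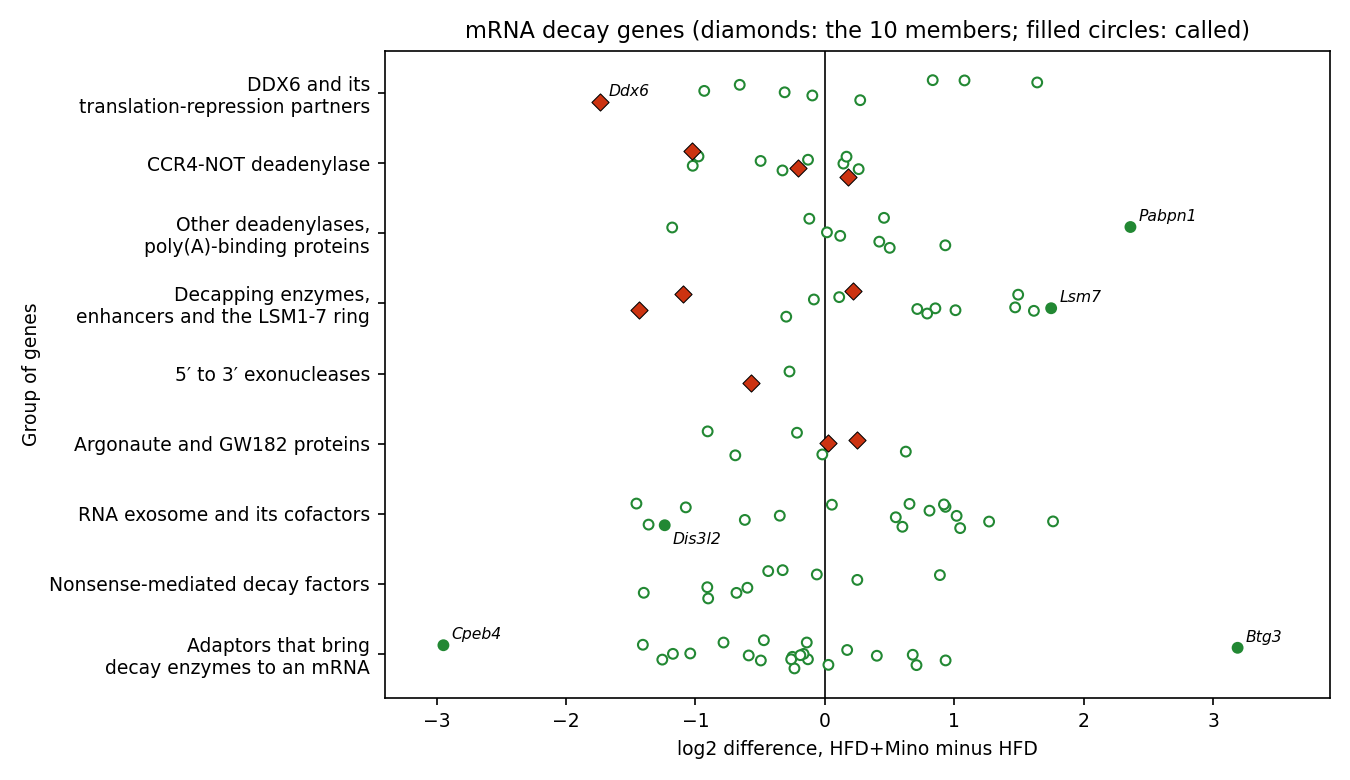
Log2 differences of HFD+Mino minus HFD for the tested genes of mRNA decay, in groups by role, with the 10 members as red diamonds and called genes of the rest as filled, named circles. Cpeb4 (-2.95) and Dis3l2 (-1.24) fell and Btg3 (3.19), Pabpn1 (2.36) and Lsm7 (1.75) rose, while the members run from -1.74 for Ddx6 to 0.25 for Tnrc6a.

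The genes whose log2 level followed that of Ddx6 most closely over the 9 samples were Aff1 (Pearson r = 0.985), Chd8 (0.972), Gng2 (0.972), Nsd3 (0.970) and Eif4b (0.969). The 9 points share their group, library and depth, so these values describe the levels and have no p. Aff1, a subunit of a transcription elongation complex, was at 2.11 to 2.54 CPM in Control, 7.98 to 10.8 CPM in HFD and 2.79 to 4.01 CPM in HFD+Mino. Eif4b, a cofactor of the translation helicase eIF4A, was at 70.0 to 89.3 CPM, 147 to 166 CPM and 73.4 to 109 CPM in the same order. No other member was among the 5.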

How the data were processed

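PVN punches of 9 mice (3 each in Control, HFD and HFD+Mino, grouped by the labels) gave 9 libraries. The authors aligned reads to mm10 with HISAT2 and assigned them to genes with featureCounts, and the deposited values are raw counts. Versions and the strand setting are not given in the sources used here. The members and lists were chosen with earlier results of these data known. Genes were kept by filterByExpr, scaled by TMM and fitted with edgeR 4.0.16 in R 4.3.3 (group means, all 9 samples, code tested on simulated data), with DESeq2 1.42.0 as an alternative. Figures used matplotlib 3.10.9. Exon lengths, positions and overlaps came from GENCODE models of GRCm38, and promoters from RefSeq.

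Named genes were all members, up to 2 highest and 2 lowest genes called in the 3-way test or HFD against Control in each group of the decay list and in the DEAD-box family, the 5 genes most like Ddx6, paralogs, genes sharing exon bases with a member, and Rn45s. The same replicate number went with deviations in one direction in Control and HFD+Mino (correlations of deviations from group means 0.135, 0.163 and 0.292), a pairing seen in the counts alone, and no other pair of groups did (all correlations negative). Numbers are those of the titles. The count columns number the HFD samples 3 to 5, so the labels disagree on which HFD mouse shares a number with a mouse of another group, and the correlations and the block with HFD rest on the titles. Intervals from counting were not used, since replicate pairs differed by 21.0 to 316 in chi-square per degree of freedom, beyond counting error. The precision is that of 3 mice per group. Alternatives covered the tool, scaling, filter, threshold, block, length and GC trends, thinning to 17728590 counts and each sample left out.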

Additional observations from a re-analysis of the deposited data

How the results depend on the processing

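In the fit as reported 0 of the 9 members other than Ddx6 were called in any comparison, and 3, 3, 5 and 0 of the 92 other decay genes in the 3-way test, HFD against Control, HFD+Mino against HFD and HFD+Mino against Control. The log2 differences of Ddx6 kept their sign under every alternative, from 2.05 to 2.46 in HFD against Control, -1.87 to -1.21 in HFD+Mino against HFD and 0.47 to 0.85 in HFD+Mino against Control. Ddx6 was selected on these counts, so its ranges are a description and no test. Counts of members in the first 3 comparisons were 2, 1 and 2 with DESeq2, 1, 1 and 2 with edgeR's likelihood ratio test, and 1, 1 and 2 at an FDR under 0.05. With the replicate block in Control and HFD+Mino they were 3, 0 and 3, and with that block and the exon length trend removed 0, 0 and 2 (Edc4 lower and Tnrc6b higher in HFD+Mino against HFD). With 1 sample left out they ranged from 0 to 1, 0 to 0 and 0 to 1, the calls being Cnot1 in the 3-way test and Edc4 in HFD+Mino against HFD, both without HFD+Mino replicate 3. No member was called in HFD+Mino against Control under any alternative run. Over all 17344 tested genes the likelihood ratio test called 2234, 966 and 3314 in the first 3 comparisons. An FDR under 0.05 gave 2258, 1001 and 4757 of them.

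Counts of the 92 genes, in the order of the 4 comparisons, were 20, 13, 34 and 1 with DESeq2, 19, 11, 28 and 0 with the likelihood ratio test, and 19, 12, 40 and 0 at an FDR under 0.05. They were 12, 6, 15 and 0 with no filter on low counts, 6, 6, 16 and 0 with the GC trend removed, and 6, 5, 7 and 0 with the exon length trend removed. The replicate block in Control and HFD+Mino gave 19, 10, 36 and 3, and with the length trend removed as well 13, 10, 29 and 0. A block over all samples called 14 in HFD+Mino against HFD, a mean count of at least 50 called 8 there, and thinning to the smallest total 9. Among all genes tested in each fit, they called 1369, 960 and 871 in HFD+Mino against HFD. Models of 6 samples called 9 of the 92 in HFD against Control, beside 617 of all tested genes. With 1 sample left out the counts ranged from 0 to 17, 2 to 6, 2 to 30 and 0 to 8, the highest each time without HFD+Mino replicate 3. Over all tested genes the likelihood ratio test called 2234, 966, 3314 and 106, and an FDR under 0.05 gave 2258, 1001, 4757 and 0. No filter on low counts gave 1299, 481, 1905 and 1, and removing the GC trend 657, 510, 1580 and 0. Removing the exon length trend gave 369, 417, 466 and 0, and with the replicate block as well 1447, 905, 2804 and 0. Leaving out HFD+Mino replicate 3 gave 2396, 550, 3815 and 1120. The cause of these shifts was not tested.

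The sign of small differences turned under some alternatives. In HFD against Control, with the length trend removed, Cnot7 came to -0.097, Tnrc6a to -0.015 and Tnrc6b to -0.077, and with the replicate block as well to -0.091, -0.026 and -0.0656. Cnot7 was at -0.0605 with the GC trend removed and ran from -0.0039 (without Control replicate 3) to 0.13 with 1 sample left out. In HFD+Mino against HFD, with the length trend removed, Cnot7 came to 0.18 and Xrn1 to 0.10, and with the block as well to 0.17 and 0.073. Tnrc6b came to -0.013 with the block in all samples, -0.019 with the block in Control and HFD+Mino, -0.00228 in models of 6 samples, and ran from -0.12 to 0.27 with 1 sample left out, below 0 in 3 of 9 such fits. With 1 sample left out Cnot6 ran from -0.023 to 0.34 and Dcp2 from -0.17 to 0.51, each below 0 in 1 fit. In HFD+Mino against Control, Cnot7 came to 0.082 with the length trend removed, 0.078 with the block as well, and ran from -0.25 to 0.029 with 1 sample left out. Cnot1 ran from -0.098 to 0.28 in such fits. The replicate block changed no other call of a member. Alternatives that are not named changed no count by more than 1.5 times.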

Other observations

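Calls among the DEAD-box helicases apart from Ddx6 were read beside those over all tested genes. Of 39 tested genes of the family (Ddx genes, Eif4a1, Eif4a2 and Eif4a3), none was called by edgeR in the 3-way test or in HFD against Control, where 12 and 7 had an unadjusted p under 0.05, and none in HFD+Mino against Control, where 3 had. In HFD+Mino against HFD, 2 were called, both higher, and were picked out after their values were seen. There 16 of the 39 had an unadjusted p under 0.05 by edgeR, 41% beside 41.3% of all tested genes. The called shares of 0%, 0%, 5.13% and 0% in the 3-way test, HFD against Control, HFD+Mino against HFD and HFD+Mino against Control stand beside 2.13%, 1.74%, 4.15% and 0.00% of all tested genes, and the 30.8%, 17.9% and 7.69% at that p in the first, second and last beside 39.0%, 20.5% and 21.3%. DESeq2 called 3, 2, 8 and 0 of the 39, beside 15.5%, 7.83%, 26.1% and 1.80% of the genes it tested. The likelihood ratio test of edgeR called 3, 0, 5 and 0, beside 2234, 966, 3314 and 106 of all 17344 tested genes. Eif4a1, the translation initiation helicase, was at 156.7, 145.5 and 135.4 CPM in Control, 90.7, 89.8 and 86.5 CPM in HFD, and 181, 182 and 172 CPM in HFD+Mino, a log2 difference of HFD+Mino from HFD of 1.00 (SE 0.18, FDR 0.0072 by edgeR). Ddx39, an mRNA export helicase, differed by 1.13 (SE 0.23, FDR 0.00954 by edgeR). Both had their lowest levels in HFD, where Ddx6 was highest.

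In 5 of the 39 genes all HFD mice lay above all others and in 9 below, where 13.4% and 9.62% of tested genes did. Ddx54, Ddx42 and Ddx19b were among the several that had their highest mean in HFD. None of them was called by edgeR's quasi-likelihood test, while DESeq2 called each in HFD+Mino against HFD. Ddx19b was at 7.20 to 11.95 CPM in Control, 16.0 to 17.2 CPM in HFD and 7.74 to 9.84 CPM in HFD+Mino. Ddx54, a nucleolar helicase, was at 15.6 to 32.3 CPM in Control, 43.6 to 52.2 CPM in HFD and 7.91 to 25.2 CPM in HFD+Mino. Ddx42, a splicing helicase, was at 65.8 to 114.5 CPM, 109 to 132 CPM and 42.4 to 67.8 CPM. Ddx19a went the other way, at 8.77 to 9.23 CPM in Control, 2.90 to 5.12 CPM in HFD and 10.2 to 10.6 CPM in HFD+Mino. DESeq2 called Ddx19a in the 3-way test, HFD against Control and HFD+Mino against HFD, and edgeR's quasi-likelihood test in none. Ddx54, Ddx42, Ddx19b and Ddx19a were picked out after their values were seen.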
